A study of Mus musculus with 8 samples.

Results

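The 46 genes described here are activity-dependent immediate early genes, taken from a deposited table of raw read counts by their symbols. All 46 were among the 53278 symbols of the table, and all 46 were among the 20140 genes with enough reads to be tested. The counts came from bulk RNA sequencing of the whole forebrain of 8 male C57BL/6J mice, 1 library per mouse. The labels give an age of 10 to 20 weeks for the study's males as a whole. Treatment lasted 9 days, and 2 groups were compared: 4 mice on control food (control mice 1 to 4) and 4 mice on food with PLX3397, an inhibitor of the receptor CSF1R on which microglia depend (depleted mice 1 to 4). No genotype, transgene or other treatment is named for either group. Levels below are CPM, the reads of a gene per 1e+06 reads of its library after scaling, means are given ± SD over 4 mice, and differences are log2 fold changes of depleted against control mice with their standard error (SE). Differences were tested with edgeR's quasi-likelihood test, p was adjusted by Benjamini-Hochberg over the 20140 genes, and 0.05 was the threshold.

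Immediate early genes are transcribed within minutes of a burst of synaptic activity, without new protein synthesis, from transcription factors such as CREB and the serum response factor that are already in the nucleus. Calcium entry through NMDA receptors and voltage-gated channels drives the kinases that phosphorylate those factors. The first products are mostly transcription factors of the AP-1, EGR and NR4A families, and others are synaptic or secreted proteins, or phosphatases that shut the same signal down. Their transcripts are short-lived, so their levels are known to follow what an animal did shortly before the tissue was taken.

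The promoters of 34 members had an entry in the RefSeq sequences of build GRCm38.p6, each covering 250 bases before to 50 after an annotated start. No entry was at hand for Arc, Crem, Dusp4, Egr1, Egr3, Ier2, Klf10, Nptx2, Nrn1, Per2, Sik1 and Trib1. Letters of known activity-response elements were searched on both strands. The cAMP response element TGACGTCA, which CREB binds, stood in 7.41% of the 54 member windows and in 1.79% of all 32851 windows. Its 5-base core TGACG, which the longer element contains, stood in 27 of the 54 member windows and in 20.8% of all windows. The CArG box, the core of the serum response element, stood in 9.26% of the member windows and in 1.63% of all, but 4 of the 5 member windows were neighbouring starts of Egr2. Counted by gene it stood in 2 of 34 members (5.88%, Dusp5 and Egr2) and in 1.81% of all genes. The AP-1 element TGANTCA stood in 1.85% and 7.81%. Windows of 1 gene can overlap, and a match describes letters only. Bases outside the windows were not searched, so a window without a match does not mean that the gene lacks the element. Below are the windows of 4 members, picked as examples from the genes highest in the mice numbered 4 (described later). They are in lower case with each core TGACG, or CGTCA where it lies on the other strand, in capitals. Dusp6 and Ier5, also highest in those mice, had no core, while Nr4a2 and Nr4a3, which were not, had 4 each. Whether the cores go with the order of the mice was not tested. Dusp1 carries the full cAMP response element and the core once more, and Egr2 carries the CArG box CCATATATGG between its cores.
Fos (chr12:85473640-85473939, plus strand): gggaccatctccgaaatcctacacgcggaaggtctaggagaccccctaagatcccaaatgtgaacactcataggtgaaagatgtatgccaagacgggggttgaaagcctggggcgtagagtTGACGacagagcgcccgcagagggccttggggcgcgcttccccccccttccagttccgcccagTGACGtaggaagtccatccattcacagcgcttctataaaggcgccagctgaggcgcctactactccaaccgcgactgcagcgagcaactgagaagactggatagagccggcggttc
Nr4a1 (chr15:101266596-101266895, plus strand): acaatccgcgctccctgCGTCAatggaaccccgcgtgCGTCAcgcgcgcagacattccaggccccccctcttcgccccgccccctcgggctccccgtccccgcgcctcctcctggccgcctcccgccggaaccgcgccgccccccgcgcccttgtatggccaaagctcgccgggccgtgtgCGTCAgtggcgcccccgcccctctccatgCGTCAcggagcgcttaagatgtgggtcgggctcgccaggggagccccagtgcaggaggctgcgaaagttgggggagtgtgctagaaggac
Dusp1 (chr17:26508423-26508722, minus strand): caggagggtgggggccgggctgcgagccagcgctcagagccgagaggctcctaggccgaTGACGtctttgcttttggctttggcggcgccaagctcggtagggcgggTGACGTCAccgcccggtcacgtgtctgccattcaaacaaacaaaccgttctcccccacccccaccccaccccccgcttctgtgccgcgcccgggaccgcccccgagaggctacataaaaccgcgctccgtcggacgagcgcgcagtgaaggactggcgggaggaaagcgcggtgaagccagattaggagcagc
Egr2 (chr10:67537619-67537918, plus strand): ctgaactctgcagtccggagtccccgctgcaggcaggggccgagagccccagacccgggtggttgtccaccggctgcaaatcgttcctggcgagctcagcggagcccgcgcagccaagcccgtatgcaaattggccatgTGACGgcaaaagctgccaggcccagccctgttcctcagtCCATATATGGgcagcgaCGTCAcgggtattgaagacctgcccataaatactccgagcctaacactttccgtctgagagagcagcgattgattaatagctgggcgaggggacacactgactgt

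Libraries held 48455538 to 68406688 counts, and no member had fewer than 18 counts in any mouse. The treatment was checked on its target. Csf1r fell from 58.6 ± 5.49 CPM in control mice to 1.22 ± 0.609 CPM in depleted mice (n = 4 each; log2 fold change -5.57, SE 0.31). All 20 microglial marker genes were lower, with a summed level of 368.7 to 452.6 CPM in control mice and 19.9 to 28.6 CPM in depleted mice. Across all genes 223 passed the threshold as lower and 11 as higher. Markers of brain regions also differed between mice: the hypothalamic peptide gene Hcrt had 1578, 1628, 1249 and 2081 counts in the mice numbered 2 and 3 of both groups and 4 to 12 in the other 4 mice. In a bulk sample, fewer cells of a type and less RNA per cell cannot be told apart.

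None of the 46 immediate early genes passed the threshold, against 1.16% of all genes tested. The smallest adjusted p was 0.230, for Nr4a3. Analysed with DESeq2, 1 member passed (Nr4a3, adjusted p = 0.0163), where 2.30% of all genes did, and with limma-voom none passed, where 1.16% did. At an unadjusted p under 0.05 the edgeR test gave 5 members, or 10.9%, against 11.0% of all genes, so the share among the members was that of the background. Nr4a3, Jun, Fosl2 and Dusp4 had lower levels in depleted mice (5.60% of all genes did at that p), and Rgs2 had a higher one (5.38%). Fold changes ran from -0.91 (Nr4a3) to 0.48 (Sgk1), with a median of -0.14 beside -0.00 for all genes. Of the members 31 had a negative and 15 a positive fold change, while 50.1% of all genes had a negative one. For 35 of 46 members the 95% interval of the fold change lay within a 2-fold change either way, and for 14 within a 1.5-fold change. Of all genes 83.0% lay within 2-fold. The intervals of the other 11 members, among them Fos, Arc, Jun and Nr4a3, reached beyond it.

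**Figure D1:**
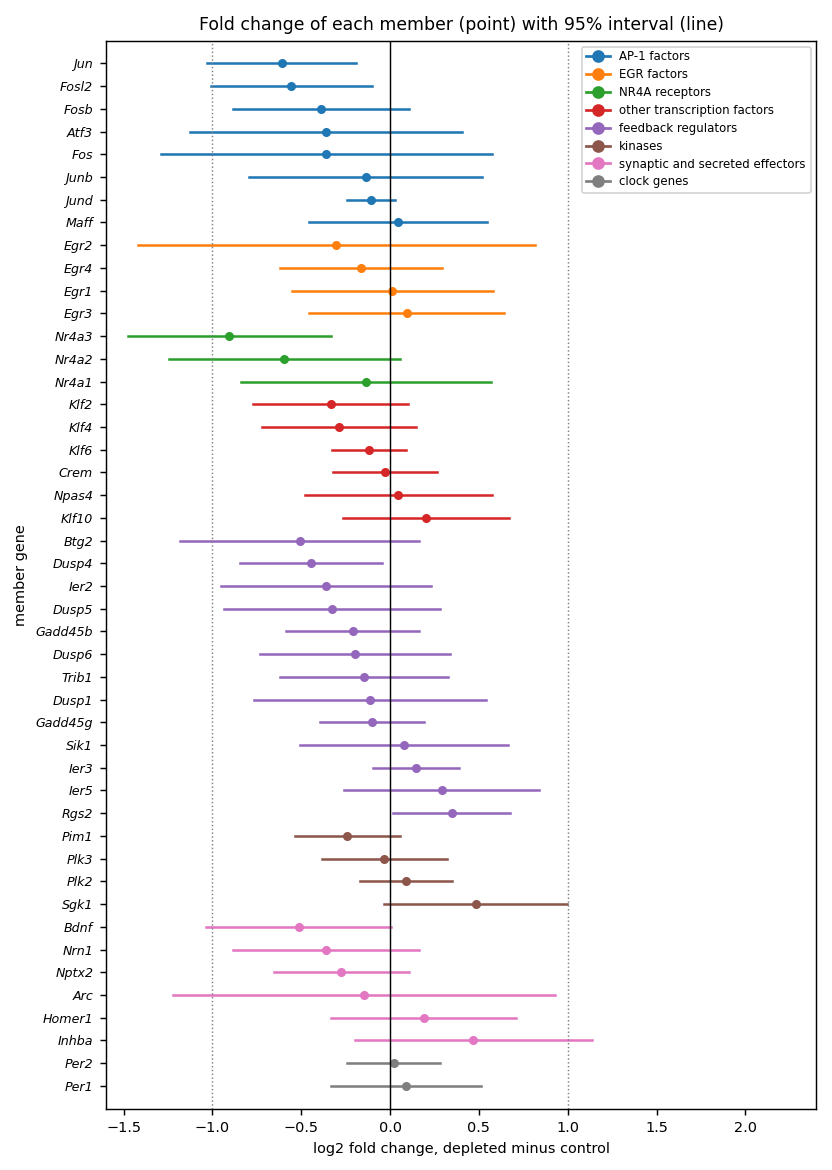
Log2 fold change of depleted against control mice (horizontal axis) for each of the 46 members (vertical axis, ordered by role), from edgeR; points are estimates and bars 95% intervals. The estimates run from -0.91 for Nr4a3 to 0.48 for Sgk1, and no member passed the threshold after adjustment over all genes.

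Levels of the members spread widely among the control mice. The coefficient of variation (CV, SD over mean) among the 4 control mice had a median of 28.0% over the members and 12.4% over all genes tested. Among the 14895 genes whose control level lay between those of the lowest and highest member (0.920 to 201 CPM), the median was 10.1%, and 8.08% of them had a CV above 28.0%. At least 20% was reached by 33 members (71.7%), against 29.9% of all genes. The widest spreads were those of Arc, at 75.8%, Egr2, at 63.1%, and Fos, at 51.2%. The narrowest were those of Jund, at 5.95%, Klf6, at 7.16%, and Pim1, at 7.60%. Depleted mice had a median CV of 26.2% over the members, against 9.45% for the genes in the same range of levels.

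**Figure D2:**
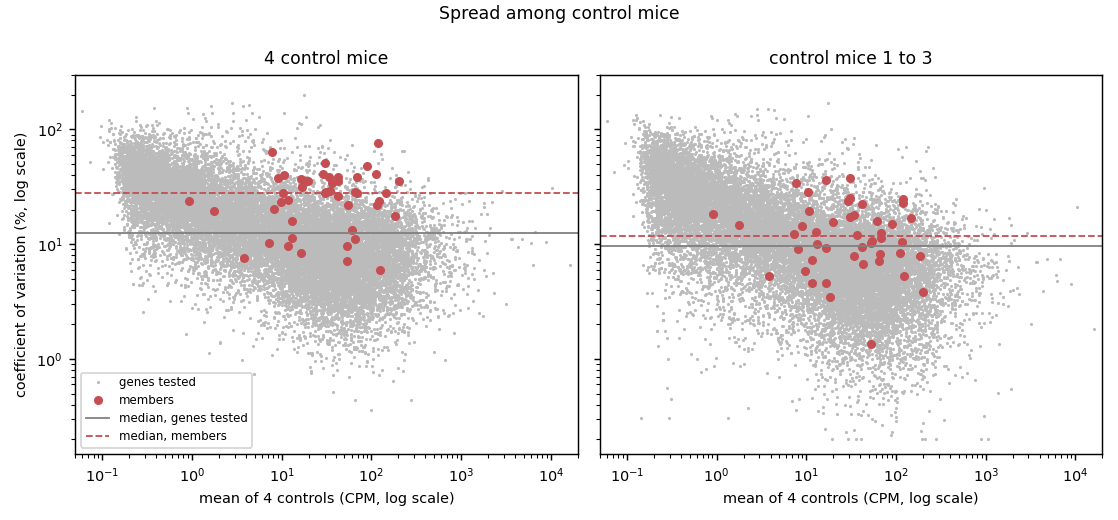
CV among the 4 control mice in percent (vertical log axis) against the control mean in CPM (horizontal log axis) for all genes tested, with the 46 members marked; the second panel leaves control mouse 4 out of the CV, lines are medians, and the very lowest CVs are drawn at the foot of the axis. With all 4 mice the medians of members and of all genes are 28.0% and 12.4%, and without that mouse 11.7% and 9.64%.

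Much of that spread belonged to 1 mouse. Control mouse 4 had the highest level of the 4 control mice for 34 of 46 members (73.9%), which it had for 31.8% of all genes. Its level was at least 1.5 times the mean of control mice 1 to 3 for 24 members (52.2%, against 4.73% of all genes) and at least 2 times that mean for 5, namely Arc (3.39 times), Egr2 (2.72), Nr4a1 (2.23), Fos (2.17) and Egr3 (2.02). The summed level of the members was 1994, 1927 and 1973 CPM in control mice 1 to 3 and 3149.6 CPM in control mouse 4. In depleted mice 1 to 4 it was 2081, 1895, 2149 and 2535 CPM, so depleted mouse 2 lay just under the range of the control mice and the other depleted mice inside it. Without control mouse 4 the median control CV of the members was 11.7%, beside 9.64% for all genes and 7.85% in the members' range of levels. Without it the median fold change was 0.04, with 22 members negative and 24 positive, 11 members changed sign, and again no member passed the threshold, where 1.07% of all genes did. Leaving out the control mouse that is highest for most members mostly lowers their control CV and raises their fold changes by construction. Control mouse 4 also had the lowest summed level of 10 oligodendrocyte markers (4372 CPM, against 7103 to 8465 in the other controls) and the highest of 10 cortical excitatory neuron markers (2501 CPM, against 1450 to 1975). The part of these in its high member levels was not tested.

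**Figure D3:**
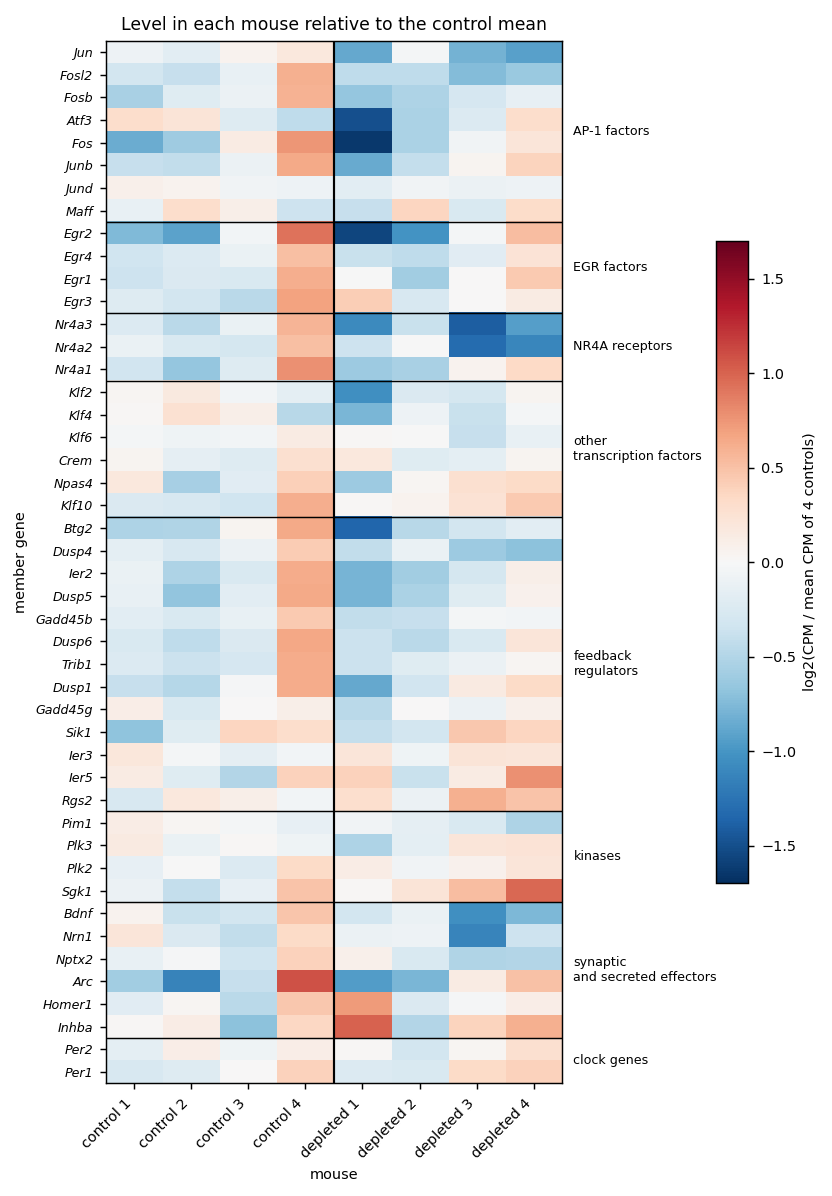
Log2 level of each of the 46 members (rows, by role) in each of the 8 mice (columns), relative to the mean of the 4 control mice; red is higher and blue lower. Control mouse 4 is highest of all 8 mice for 29 members (16.3% of all genes), and depleted mouse 1 lowest for 17 (14.5% of all genes).

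AP-1 factors are dimers of FOS and JUN family proteins that switch on later genes. Fos, on chromosome 12 from 85473890 to 85477273 of build mm10, is the standard marker of recently active neurons. It stood at 17.2, 20.1, 33.9 and 51.5 CPM in control mice 1 to 4 and at 9.87, 21.1, 29.4 and 35.4 CPM in depleted mice 1 to 4. The lowest value belonged to depleted mouse 1 and the highest to control mouse 4, and the groups overlapped widely (log2 fold change -0.36, SE 0.42, 95% interval -1.29 to 0.57, adjusted p = 0.812). Without control mouse 4 the fold change was 0.013. Fosb, whose product includes the stable form that builds up with repeated activity, stood at 13.6, 17.2, 18.6 and 30.1 CPM in control mice and at 12.6, 13.8, 16.3 and 18.0 CPM in depleted mice (-0.39, SE 0.22, adjusted p = 0.568). All 4 depleted mice lay under control mouse 3, and depleted mouse 1 under every control mouse. Junb, a JUN protein that often opposes JUN, stood at 51.9, 51.0, 63.4 and 106 CPM and at 37.7, 51.5, 70.2 and 88.8 CPM (-0.14, SE 0.29, adjusted p = 0.913). In both groups mouse 4 was the highest.

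Fosl2, a slower FOS relative, was the only member whose groups did not overlap; over all genes 5.77% had groups that did not overlap, and 3.50% had all depleted mice lower. It stood at 33.9, 32.3, 38.6 and 64.4 CPM in control mice and at 31.3, 31.2, 25.4 and 27.2 CPM in depleted mice. The gap between the lowest control and the highest depleted mouse was small, and control mouse 4 stood far above the rest (-0.56, SE 0.20, adjusted p = 0.362). Without that mouse the fold change was -0.28. Jun, the main JUN protein, which also responds to stress kinases, lies on chromosome 4 from 95049034 to 95052222. Its levels were 61.8, 58.2, 68.3 and 74.8 CPM in control mice and 36.1, 64.1, 37.6 and 34.7 CPM in depleted mice (-0.61, SE 0.19, adjusted p = 0.279). Depleted mice 1, 3 and 4 lay below every control mouse and close together, while depleted mouse 2 lay among the controls. Jund, which is expressed steadily, stood at 131, 129, 118 and 116 CPM in control mice and 109, 119, 115 and 116 CPM in depleted mice (-0.11, SE 0.06, adjusted p = 0.563). It had the highest level per length of all members, at 74.1 CPM per kb of exon in control mice, while the stress-response factor Atf3 had the lowest, at 0.427. Of the 8 AP-1 genes, counting Atf3 (-0.36) and the small MAF protein gene Maff (0.04), 7 had a negative fold change, with a median of -0.36.

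EGR factors are zinc-finger proteins that follow ERK signalling. Egr1 stood at 158, 170.2, 168 and 308 CPM in control mice and at 199, 134, 203 and 275 CPM in depleted mice. In the control group 3 mice lay within a narrow band with control mouse 4 far above it, and 3 depleted mice lay between the band and that mouse (log2 fold change 0.01, SE 0.25, 95% interval -0.55 to 0.58, adjusted p = 0.992). Egr2 had the lowest level per length of the 4, at 2.29 CPM per kb in control mice beside 44.8 for Egr1. It stood at 4.64, 4.14, 7.55 and 14.8 CPM in control and 2.63, 3.86, 7.62 and 11.1 CPM in depleted mice (-0.30, SE 0.50, 95% interval -1.42 to 0.81, adjusted p = 0.877). Egr4 stood at 27.0, 29.2, 31.6 and 48.8 CPM and at 26.4, 25.3, 30.0 and 40.3 CPM (-0.16, SE 0.20, adjusted p = 0.824). For both genes mouse 4 was the highest of its group, and the other 3 mice of each group overlapped. Egr3 had a fold change of 0.09 (SE 0.25). The median over the 4 genes was -0.08.

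NR4A receptors are orphan nuclear receptors that act as transcription factors. Nr4a1 stood at 71.6, 56.9, 76.6 and 153 CPM in control mice and at 58.2, 60.9, 92.9 and 113 CPM in depleted mice (-0.14, SE 0.32, adjusted p = 0.919), again with mouse 4 highest in each group. Nr4a3, on chromosome 4 from 48045153 to 48086447, had another order: 31.5, 26.7, 34.1 and 55.0 CPM in control mice and 17.4, 28.2, 13.9 and 19.3 CPM in depleted mice. Depleted mice 1, 3 and 4 lay below every control mouse, and depleted mouse 2 between control mice 1 and 2. Its fold change of -0.91 (SE 0.26, 95% interval -1.48 to -0.33) was the lowest of the 46 and did not pass (adjusted p = 0.230). The 21 alternatives changed the processing, the test, the mice used or the covariates. Over them its adjusted p ran from 0.0163 (DESeq2) to 1.00 (striatal markers as a covariate, described later), and its sign was negative in all 21. Nr4a2, which dopamine neurons need for their identity and which other neurons induce with activity, stood at 60.5, 54.4, 53.1 and 92.9 CPM and at 51.0, 65.2, 26.3 and 30.2 CPM (-0.60, SE 0.29, adjusted p = 0.495). Here too depleted mice 1, 3 and 4 were below all controls.

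**Figure D4:**
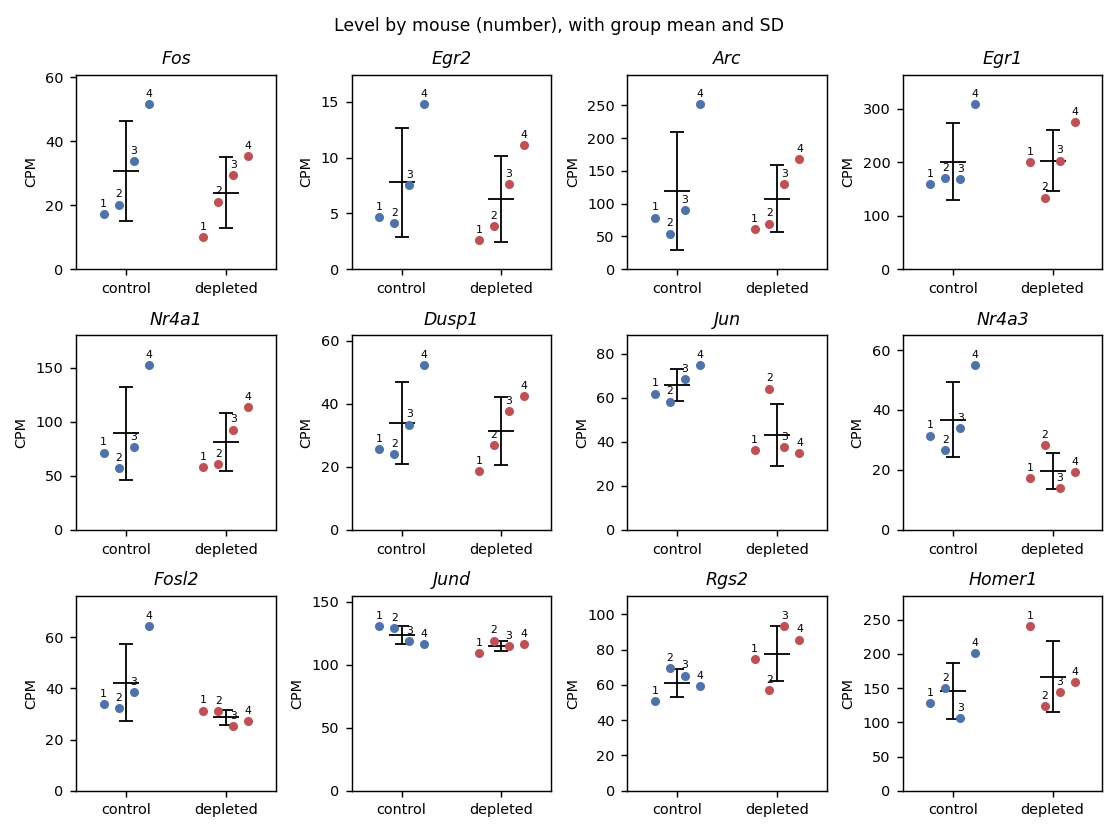
Level in CPM (vertical axis) of 12 members in the 4 control and the 4 depleted mice, 1 point per mouse with its number, and the group mean with its SD. For Fos, Egr2, Arc, Egr1, Nr4a1 and Dusp1 mouse 4 is the highest point of both groups, whereas for Jun, Nr4a3 and Fosl2 depleted mice 3 and 4 lie below every control mouse.

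Among the remaining transcription factors, Npas4, which neurons induce with calcium entry in particular, stood at 34.5, 20.7, 26.8 and 40.3 CPM in control mice and at 19.9, 31.1, 36.8 and 38.3 CPM in depleted mice. The groups covered the same range (0.05, SE 0.24, 95% interval -0.48 to 0.57, adjusted p = 0.967). Klf6, a zinc-finger factor, stood at 51.4, 50.1, 51.2 and 58.4 CPM and at 53.5, 52.6, 40.3 and 48.3 CPM (-0.12, SE 0.09, adjusted p = 0.707). Its level was steady but for control mouse 4, above the rest, and depleted mouse 3, below them. Fold changes of Klf2, Klf4, Klf10 and the cAMP-responsive factor Crem were -0.33, -0.29, 0.20 and -0.03, and none of the 6 genes passed. The clock genes Per1 and Per2, which light and activity induce, had fold changes of 0.09 (SE 0.19) and 0.02 (SE 0.12).

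Effectors act at the synapse or are secreted. Arc, on chromosome 15 from 74669083 to 74672570, encodes the protein that helps to remove AMPA receptors from synapses. It stood at 78.5, 54.1, 90.3 and 252 CPM in control mice and at 61.5, 69.4, 130.3 and 168 CPM in depleted mice. All 4 depleted mice lay within the range of the controls, and control mouse 4 lay far above every other mouse (-0.14, SE 0.48, 95% interval -1.22 to 0.93, adjusted p = 0.947). Without that mouse the fold change turned to 0.53 (adjusted p = 0.524). Homer1, which scaffolds metabotropic glutamate receptors and has a short activity-induced form that counts per gene do not separate, stood at 128, 149.5, 106 and 201 CPM and at 241, 124, 144 and 159 CPM (0.19, SE 0.23, adjusted p = 0.824). The highest value was that of depleted mouse 1, which was the lowest for Fos. Bdnf, the neurotrophin, stood at 32.5, 23.9, 25.0 and 43.2 CPM and at 25.1, 28.7, 15.1 and 18.4 CPM (-0.51, SE 0.23, adjusted p = 0.462), with depleted mice 3 and 4 below every control. The AMPA receptor-clustering pentraxin Nptx2 had a fold change of -0.27, the neuritin gene Nrn1 -0.36 and the activin subunit gene Inhba 0.47, and none passed.

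Feedback regulators include the dual-specificity phosphatases, which remove the phosphates from MAP kinases. Dusp1 stood at 25.7, 24.2, 33.4 and 52.3 CPM in control mice and at 18.6, 27.0, 37.6 and 42.4 CPM in depleted mice (-0.11, SE 0.29, adjusted p = 0.930). Dusp4 stood at 8.70, 8.07, 9.06 and 13.1 CPM and at 7.29, 8.97, 6.33 and 6.01 CPM (-0.45, SE 0.18, adjusted p = 0.402). Mouse 4 was highest in both groups for Dusp1, whereas for Dusp4 depleted mouse 4 was the lowest of all 8 mice and depleted mouse 2 the only depleted mouse among the controls. Rgs2, which speeds the shut-off of G proteins, stood at 50.8, 69.4, 65.2 and 59.2 CPM and at 74.7, 57.2, 93.4 and 85.7 CPM (0.35, SE 0.15, adjusted p = 0.431). Depleted mice 1, 3 and 4 lay above every control mouse and depleted mouse 2 among them. Over the 13 feedback genes 9 had a negative fold change, with a median of -0.15. Among the 4 kinase genes the median was 0.03. Pim1, a serine kinase gene, stood at 4.17, 3.93, 3.75 and 3.48 CPM and at 3.68, 3.44, 3.19 and 2.65 CPM (-0.24, SE 0.13, adjusted p = 0.552), and Sgk1, which glucocorticoids also induce, had the highest fold change of all members (0.48, SE 0.23, adjusted p = 0.486).

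Members differed in the order in which the mice stood. For 20 of them (43.5%, against 5.01% of all genes) the mouse numbered 4 was the highest of its group in both groups: Arc, Btg2, Dusp1, Dusp5, Dusp6, Egr1, Egr2, Egr4, Fos, Fosb, Ier2, Ier5, Junb, Klf10, Npas4, Nr4a1, Per1, Plk2, Sgk1 and Trib1. For 14 of these (30.4% of members, 1.14% of all genes) depleted mouse 1 was also the lowest depleted mouse. The labels do not tie mice of the same number to each other. A different order held for Dusp4, Fosl2, Jun, Jund, Nr4a2 and Nr4a3, where depleted mice 1, 3 and 4 all lay below every control mouse (13.04% of members, 8.09% of all genes). These shares are close, so this order is not read as a trait of the members. Jund met it narrowly, at 116.09 CPM in depleted mouse 4 and 116.15 CPM in control mouse 4. Depleted mouse 2 was the highest depleted mouse for 8 members (17.4%, against 26.8% of all genes).

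Of 8 hippocampal markers, 4 (Spink8, Dsp, Fibcd1 and Nov) showed that same order, with depleted mice 1, 3 and 4 below every control mouse, and 4 (Prox1, Wfs1, Lct and Trpc6) did not. The summed level of the 8 was 417, 431, 423 and 486 CPM in control mice 1 to 4 and 336, 452, 299.9 and 259 CPM in depleted mice 1 to 4, and none of the 8 was at 0 in any mouse. Fibcd1, a marker of the CA1 field, stood at 56.8, 40.8, 42.6 and 55.3 CPM in control mice and at 13.1, 43.2, 15.6 and 13.1 CPM in depleted mice (-1.20, SE 0.37, adjusted p = 0.273). Depleted mouse 2 stood with the controls and the other 3 depleted mice below them, as for Jun and Nr4a3. Spink8, another CA1 marker, had a fold change of -1.10 (SE 0.34, adjusted p = 0.281). Wfs1, also active in the striatum and amygdala, had a fold change of 0.09, and Trpc6 had one of -0.12. The striatal markers stood the other way: their 12 genes summed to 529 to 2161 CPM in control mice, to 1124 CPM in depleted mouse 2 and to 3282 to 4144 CPM in the other depleted mice. Pde10a and Pde1b, phosphodiesterase genes of striatal neurons, had the smallest p among them (1.27, SE 0.42, adjusted p = 0.317, and 0.92, SE 0.32, adjusted p = 0.339). None of the 8 hippocampal and none of the 12 striatal markers passed the threshold. At an unadjusted p under 0.05 the edgeR test gave 3 (37.5%) and 11 (91.7%) of them, against 11.0% of all genes. With the mean log2 level of the hippocampal markers as a covariate, chosen after the data were seen, the fold change of Jun was -0.22, of Nr4a3 -0.37, of Fosl2 -0.25, of Dusp4 -0.09, of Nr4a2 -0.04 and of Bdnf -0.01 (adjusted p = 1.00 for each, where 0.844% of all genes passed). With the striatal markers in that place Jun stood at -0.32 and Nr4a3 at -0.50, and 0.839% of all genes passed. The hippocampal covariate was 3.57 to 4.59 in control mice, 4.27 in depleted mouse 2 and 2.84 to 3.06 in the other depleted mice. The striatal covariate was 4.54 to 6.91, 5.91 and 7.56 to 7.89 in the same order. Each covariate thus nearly marks the group, and these fits cannot tell the treatment from the region markers. Without depleted mouse 2, Jun (-0.86, adjusted p = 0.00119) and Nr4a3 (-1.12, adjusted p = 0.0388) passed as lower, but 3.31% of all genes passed in that fit, and 2.13% as lower, against 1.16% and 1.11% with all 8 mice. That mouse had the highest level of both genes among the depleted mice. A smaller p without it follows from that order and is no further evidence of a difference. Among the 4 mice with almost no Hcrt reads (mice 1 and 4 of each group) Jun passed (-0.94, adjusted p = 0.0240), where 1.52% of all genes did. Among the 4 mice with them (mice 2 and 3 of each group) its fold change was -0.31, where 0.325% of all genes passed. Depleted mouse 2, the highest depleted mouse for Jun, was only in the second of these sets. The sets were chosen after the data were seen, and the difference between them was not tested. The part of the region markers in these levels was not tested further.

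**Figure D5:**
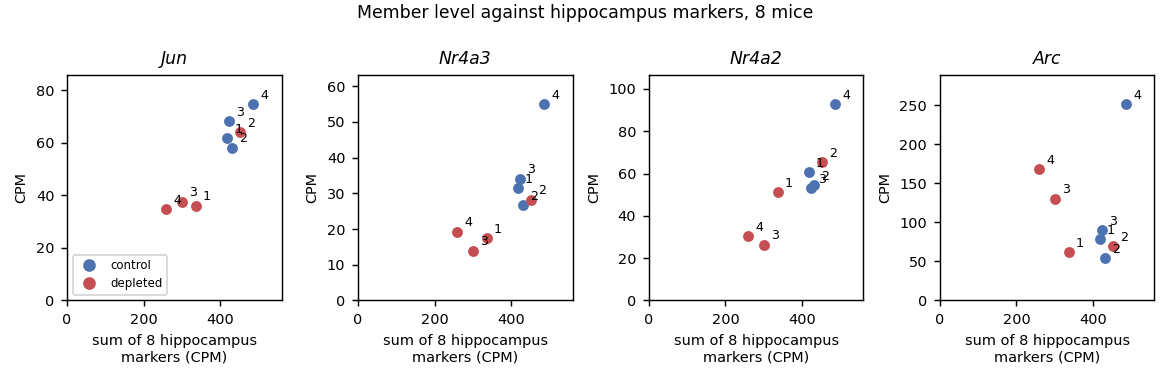
Level in CPM (vertical axis) of Jun, Nr4a3, Nr4a2 and Arc against the summed level in CPM of 8 hippocampal markers (horizontal axis), 1 point per mouse, by group and number. Depleted mice 1, 3 and 4, with 259 to 336 CPM of hippocampal markers, have the 3 lowest levels of Jun, Nr4a3 and Nr4a2, whereas Arc is spread over its range in both groups.

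Related genes were counted in 2 further lists. Of 39 genes of the upstream signal, such as the NMDA receptor subunit gene Grin1, CaM kinases, ERK kinases, CREB and the serum response factor with its cofactors, none passed the edgeR test (3, or 7.69%, had an unadjusted p under 0.05, against 11.0% of all genes). Their median fold change was -0.01, and the 95% interval of all 39 lay within a 2-fold change. The smallest p-values were those of Rps6ka5, a histone kinase below ERK (0.46, SE 0.15, adjusted p = 0.319), and Rps6ka1, a ribosomal S6 kinase gene (-0.44, SE 0.15, adjusted p = 0.332). Of 40 further activity-induced genes 1 passed (2.5%, against 1.16% of all genes), and 8 had an unadjusted p under 0.05 (20.0%, against 11.0%), 4 in each direction. Their median was -0.02. Arid5a, which encodes an RNA-binding protein that stabilises cytokine transcripts, fell from 10.8, 9.56, 11.4 and 13.2 CPM in control mice to 6.91, 8.18, 7.63 and 7.20 CPM in depleted mice (-0.59, SE 0.11, adjusted p = 0.0373). The groups did not overlap. Its adjusted p ran from 0.000137 to 0.963 over 21 alternatives, and the call did not hold in 13 of them, among them leaving out any 1 mouse other than control mouse 2 or depleted mouse 2.

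Among the 46 members, 10 share exon bases with a gene on the opposite strand and none with a gene on the same strand. The strand setting of the counting is not given in the sources used here, so reads of both partners cannot be told apart. The most abundant partners were Prdx2, beside Junb, at 192 CPM in control mice (log2 fold change -0.01), and Ergic1, beside Dusp1, at 114 CPM (-0.00). Jun shares bases with Junos, which stood at 1.27 CPM, beside 65.8 CPM for Jun.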

How the data were processed

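Read counts per gene symbol were taken from 1 deposited table of whole numbers, not normalized, with 1 column per mouse. The submitters' processing notes name STAR, FastQC, MultiQC, DESeq and DESeq2 with build mm10. Their settings, the annotation release and the strand were not given in the sources used here. Coordinates and exon overlaps came from GENCODE M21. Genes were filtered with filterByExpr, scaled by TMM and tested with edgeR 4.0.16 (glmQLFTest, R 4.3.3) without a covariate; the biological CV was 16.1%. DESeq2 1.42.0 and limma-voom (limma 3.58.1) were among 21 alternatives. Steps were tested on simulated data. No 2 libraries of a group agreed within sampling noise. Mice of a group are taken as separate animals. The edgeR p-values set the group difference against the spread among mice, which edgeR estimates for each gene with the help of all genes.

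The members, gene lists and tests were chosen with earlier results of these data known. Members with a value in every mouse are the classical set (Fos, Fosb, Junb, Egr1, Egr2, Egr4, Arc, Npas4, Nr4a1, Dusp1, Bdnf and Homer1), any that passed or whose groups did not overlap, the 5 with the smallest p, and the 3 with the largest and the 3 with the smallest control CV. Nr4a2 was added after its values were seen. Of the upstream, further activity-induced, hippocampal and striatal lists, the genes that passed or the 2 with the smallest p were named; other marker lists are given by their sums. Members were matched by symbol, and 4 genes of other lists by an older symbol. Cell type and region lists were markers; the hippocampal list held Prox1, Wfs1, Spink8, Lct, Trpc6, Dsp, Fibcd1 and Nov.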

Additional observations from a re-analysis of the deposited data

Results flagged for a closer look

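In 9 of 92 groups of 4 mice (each member in each group), 1 mouse lay apart from the other 3 by more than Dixon's 95% critical value. About 1 in 20 groups would do so by chance only if values were independent and normally distributed, which was not tested. In 7 of these 9 the mouse was control mouse 4, which was the highest. Its level was 308.1 CPM for Egr1 (158 to 170.2 in the other control mice), 180.5 CPM for Egr3 (81.4 to 96.1) and 67.7 CPM for the phosphatase gene Dusp6 (32.0 to 36.1). For the transcription factor genes Klf6 and Klf10 it was 58.4 CPM (50.1 to 51.4) and 28.0 CPM (14.4 to 15.4). For the stress-response gene Gadd45b it was 15.9 CPM (9.82 to 10.8), and for the pseudokinase gene Trib1 25.6 CPM (12.9 to 14.1). Both other cases were depleted mouse 2, which stood at 64.1 CPM for Jun, above the other depleted mice (34.7 to 37.6), and at 6.92 CPM for Ier3, below them (8.43 to 8.47). Levels of 1 mouse are linked across genes, so these cases do not count as separate observations. The same count was not made over all genes, where control mouse 4 was the highest control for 31.8% and the lowest for 32.3%.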

How the results depend on the processing

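Under 21 alternatives 44 of the 46 members passed in none, and 20 kept their sign in all. Over all genes 234 passed; 464 did with DESeq2 and 66 in the 4 mice with Hcrt reads, and 185 to 684 when 1 mouse was left out. Of the members 1 passed with DESeq2 (Nr4a3) and 1 in the 4 mice without Hcrt reads (Jun), and 0 to 2 when 1 mouse was left out. When 1 mouse was left out, 0 to 1 upstream genes and 0 to 2 further activity-induced genes passed, the members' median fold change ran from -0.24 to 0.04 and their median control CV from 11.7% to 31.7%. The 1 further activity-induced gene became 0 with the replicate block, the striatal or hippocampal score or Hcrt presence as a term, and where only the mice with Hcrt reads were used or control mouse 4 and depleted mouse 1 were left out together. Values of sign changes are given for the 20 members named by rule, and the other 26 are counted. Control mouse 4 was the highest of all 8 mice for 29 members (63.0%, against 16.3% of all genes). Depleted mouse 1 was the lowest for 17 (37.0%, against 14.5% of all genes). Leaving out both therefore mostly raises the members' fold changes by construction. With those 2 mice left out, signs turned for 14 members: Fos (0.27), Junb (0.34), Egr2 (0.47), Egr4 (0.12), Arc (0.72), Nr4a1 (0.38), Dusp1 (0.36) and 7 others. In the mice with Hcrt reads they turned for 12, namely Junb (0.093), Arc (0.47), Nr4a1 (0.21), Dusp1 (0.17), Egr1 (-0.000995) and 7 others, and in those without for Npas4 (-0.35) and 1 other. With the hippocampal score they turned for 11, namely Egr1 (-0.19), Arc (0.013), Rgs2 (-0.030), Klf6 (0.00087) and 7 others, and with the striatal score for 8, namely Egr1 (-0.20), Rgs2 (-0.022) and 6 others. Leaving out 1 mouse gave ranges across 0 for 19 members: Fos (-0.61 to 0.013), Junb (-0.36 to 0.16), Egr1 (-0.17 to 0.29), Egr2 (-0.72 to 0.21), Egr4 (-0.33 to 0.059), Arc (-0.45 to 0.53), Npas4 (-0.10 to 0.21), Nr4a1 (-0.34 to 0.25), Dusp1 (-0.29 to 0.18), Homer1 (-0.046 to 0.38) and 9 others. The cause of these changes was not tested. Mice with the same number deviated together in 1 of 4 pairs (correlations from -0.22 to 0.37), so the numbers were not taken as pairing. Hcrt reads did go by number, and for 20 members (43.5%, against 5.01% of all genes) mouse 4 was highest in both groups. Whether mice of the same number share an origin cannot be told from the labels. With the replicate block 165 genes and 0 members passed, and the members' median was -0.12. Of the mice, 1 control and 1 depleted mouse correlated best with their own number. Alternatives with the hippocampal score, with mice chosen by Hcrt reads and without those 2 mice were added after the data were seen. The fewest counts of any member in a mouse were 18 (Atf3), so its levels carry the most counting error.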

Other observations

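Depleted mouse 1 was the lowest of all 8 mice for 17 members (37.0%, against 14.5% of all genes). Klf2, Klf4 and Atf3, given here, were picked from these members, which also hold Fos, Fosb, Junb, Egr2 and Dusp1. For no member did this mouse lie apart by Dixon's critical value. Klf2, a factor that endothelial cells express under blood flow, stood at 5.66 CPM there, below the 9.45 to 12.1 CPM of the other depleted mice and the 10.4 to 13.04 CPM of the control mice. Klf4, a related factor, stood at 4.73 CPM, below the other depleted mice (6.26 to 7.94 CPM) and the control mice (5.86 to 9.76 CPM). Atf3 stood at 0.326 CPM in it and at 0.630 CPM or more in every other mouse. The same mouse had the lowest summed level of 8 choroid plexus markers (85.7 CPM, against 361.5 CPM or more elsewhere) and of 6 meningeal markers (41.6 CPM, against 46.0 CPM or more elsewhere). Summed over 10 endothelial markers it stood at 255.1 CPM, close to control mouse 4 at 254.9 CPM, the lowest of the 8 mice. It had the highest Homer1 and Inhba levels of all 8 mice, at 240.9 and 20.9 CPM. These levels were singled out after they were seen and were not tested.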
